A study of Homo sapiens with 12 samples.

Results

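Potassium channel genes were examined in RNA-seq libraries of MDA-MB-231 cells, an established human triple-negative breast cancer line, after knockdown of NONO or of PKM2. A gene was counted as a member when its name consisted of KCN, further letters and a closing number and when its identifier was present in both expression tables; antisense genes were left out. The names gave 95 members among the 60558 genes shared by the tables. Of these, 22 members were detected in both experiments, that is, they passed edgeR's filter on low counts, which asks for a minimum level in at least 3 libraries. The members were thus chosen by their names and their estimated counts. KCNJ8 was singled out with its change already known, so its values are described without a test and it is left out of every count of called genes.

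The data comprised 12 libraries in 4 groups of 3. NC (negative control) libraries of wild-type genotype were made for the NONO experiment and compared with NONO knockdown libraries, and separate NC libraries were compared with PKM2 knockdown libraries, so the experiments share no controls. The knockdowns were made with siRNA, of which the labels do not say how many were used, and nothing states that the replicates were separate cultures, so P values measure only the spread between these libraries. NONO is a nuclear protein of paraspeckles that binds RNA and DNA, and PKM2 is a splice form of pyruvate kinase encoded by PKM. The tables give 1 value for PKM as a whole.

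Potassium channels let potassium ions leave the cell down their gradient and thereby set the membrane potential, which in turn drives calcium entry and cell volume. Pore subunits fall into voltage-gated channels, calcium-activated channels, inward rectifiers, which pass current more easily into the cell than out of it, and 2-pore-domain leak channels, which stay open at rest. Auxiliary subunits change the gating or the surface level of a pore but conduct no ions themselves. In epithelial and breast cancer cells the calcium-activated channel KCNN4 is among the best known of these genes.

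The libraries held between 19861762 and 28455268 estimated counts. Levels are given as TMM-normalized counts per 1000000 counts (CPM), with the SD of 3 libraries. NONO fell from 373 ± 16.7 to 62.7 ± 1.40 CPM in its own experiment, and PKM fell from 2270 ± 56.8 to 227 ± 8.30 CPM in the PKM2 experiment. Both genes were higher, not lower, when the other was knocked down. The mesenchymal markers VIM, CD44, AXL, CAV1 and FN1 ranged from 26.2 to 4466 TPM over the 12 libraries. TPM, transcripts per 1000000 transcripts, also takes gene length into account. ESR1, PGR and CDH1 reached at most 0.41 TPM, EPCAM 3.73 TPM and ERBB2 35.2 TPM, and 8 markers of leukocytes, endothelium, liver, muscle and neurons reached at most 2.31 TPM. NC replicate 1 in the NONO experiment and knockdown replicate 3 in the PKM2 experiment lay farther from their replicates than the other libraries did.

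Promoter sequences are shown first for KCNJ8 and for KCNC4 and KCNIP3, a voltage-gated pore and a calcium-binding subunit that were called lower after both knockdowns. Their calls after NONO knockdown were lost with DESeq2 and in some fits that left out 1 library, as given below. Each window runs from 250 bases before to 50 bases after the RefSeq gene start on GRCh38.p14 and is written in the direction of the gene. The KCNJ8 window is chr12:21774657-21774956 on the minus strand, that of KCNC4 is chr1:110210064-110210363 on the plus strand and that of KCNIP3 is chr2:95346408-95346707 on the plus strand. Capitals mark the GC box, GGGCGG on either strand, a motif bound by SP-family factors.
KCNJ8: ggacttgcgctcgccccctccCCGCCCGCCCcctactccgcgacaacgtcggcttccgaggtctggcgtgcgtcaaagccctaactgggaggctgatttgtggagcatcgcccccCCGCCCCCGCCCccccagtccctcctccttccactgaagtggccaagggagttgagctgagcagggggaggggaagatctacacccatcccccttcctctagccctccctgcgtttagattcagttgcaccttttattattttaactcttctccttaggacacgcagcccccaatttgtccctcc
KCNC4: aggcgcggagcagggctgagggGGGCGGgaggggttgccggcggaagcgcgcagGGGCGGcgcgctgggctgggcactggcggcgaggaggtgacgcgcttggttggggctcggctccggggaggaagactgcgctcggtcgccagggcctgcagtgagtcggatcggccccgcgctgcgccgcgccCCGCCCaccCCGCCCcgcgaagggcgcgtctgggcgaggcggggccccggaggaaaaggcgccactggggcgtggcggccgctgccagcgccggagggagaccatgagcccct
KCNIP3: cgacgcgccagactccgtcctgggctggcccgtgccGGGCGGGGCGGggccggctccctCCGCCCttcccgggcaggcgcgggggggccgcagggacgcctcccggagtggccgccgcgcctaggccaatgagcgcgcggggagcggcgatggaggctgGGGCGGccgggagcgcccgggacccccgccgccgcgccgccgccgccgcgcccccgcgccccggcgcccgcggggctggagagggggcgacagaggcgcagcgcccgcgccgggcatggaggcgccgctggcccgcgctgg
Each of these windows held 4 GC boxes, overlapping ones included. RefSeq gave 33 promoters for 18 of the 22 detected members. A GC box was present in 45.5% of the 33 promoters and in 45.0% of all 35116 promoters of the same length. These are shares of promoters, and some members, such as KCNAB1 and KCNAB2, gave several. Shares by gene were not compared. A TATA box (TATAAA) was present in 12.1% against 11.5% of all promoters, an AP-1 motif (TGANTCA) in 9.09% against 7.71% and a TEAD motif (GGAATG) in 9.09% against 14.0%, searched on both strands. These are matches of letters and no measurement of binding.

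Most potassium channel genes were silent or close to it. No count at all was recorded in the 12 libraries for 23 of the 95 members, and 49 more had counts but passed the filter in neither experiment, with at most 16 counts in any library. KCNH1, a voltage-gated channel, passed in the PKM2 experiment only, with 147 counts there and 47 in the NONO experiment. Just inside the limit lay KCNE1 with 69 and 138 counts, KCNK2 with 77 and 100 and KCNIP2 with 89 and 55 in the NONO and PKM2 experiments. Just outside lay KCNV2 with 45 and 28 counts and KCNH8 with 46 and 14. By role, the detected members were 3 of 16 inward rectifiers, 4 of 15 2-pore-domain channels, 2 of 8 calcium- or sodium-activated pores and 6 of 40 voltage-gated pore or modifier subunits, and 5 of 12 auxiliary subunits of voltage-gated channels and 2 of 4 of calcium-activated channels.

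The detected members were themselves weakly expressed. Their median level in NC libraries was 1.17 TPM in the NONO experiment and 1.77 TPM in the PKM2 experiment, against 14.4 and 12.9 TPM over all genes tested, and 2 of the 22 lay above that median. KCNAB2, the most abundant, had 36.7 ± 3.63 TPM in the NC libraries of the NONO experiment and 37.95 ± 3.16 TPM in those of the PKM2 experiment. KCNN4 followed with 22.1 ± 2.91 and 21.6 ± 1.02 TPM, and KCNK1 with 11.1 ± 1.31 and 11.95 ± 1.08 TPM. The first 3 places were the same in both sets of NC libraries. Further down, KCNK1, KCNQ5 at 10.6 ± 0.516 and KCNIP3 at 10.5 ± 0.657 TPM were not separated by their SD in the PKM2 experiment. The tables were normalized separately, so levels between experiments are set side by side only.

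Summed over the 95 members, the level was 109, 113 and 112 TPM in the NC libraries of the NONO experiment and 89.5, 91.7 and 92.3 TPM after NONO knockdown. In the PKM2 experiment the sum was 137, 121 and 132 TPM in NC libraries and 107, 105 and 97.9 TPM after knockdown. The groups did not overlap in either experiment. In bulk RNA, fewer cells that express a gene and less RNA per cell cannot be told apart. KCNAB2 alone made up 33.0% of the summed TPM in NC and 32.0% in NONO knockdown libraries, and 29.2% in NC and 41.0% in PKM2 knockdown libraries.

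KCNJ8 encodes Kir6.1, the pore of a potassium channel that closes when ATP is high. Among the members detected in both experiments it had the largest ratio between groups in each. In both experiments KCNJ8 passed the low-count filter only through its NC libraries, which favours a fall. In the NONO experiment its estimated counts were 26, 38 and 33 in NC and 7, 3 and 2 in knockdown libraries. In the PKM2 experiment they were 57, 40 and 57 in NC, and 0 in each of the 3 knockdown libraries. No knockdown library reached the lowest NC library. In CPM, the mean went from 1.55 ± 0.254 to 0.201 ± 0.131 CPM (SD, n = 3) with NONO knockdown, which is a pooled ratio of 7.71 in favour of NC with a 95% interval of 4.22 to 15.4 from counting error alone. With PKM2 knockdown the mean went from 1.85 ± 0.227 CPM to 0. A count of 0 over the 3 libraries was taken to allow up to 3 counts or 0.0413 CPM. On that assumption KCNJ8 was at least 45.0-fold lower. This bound covers counting error in the knockdown libraries only and takes the pooled NC level as observed. On the TPM scale the means were 1.05 ± 0.166 and 0.13 ± 0.0794 in the NONO experiment and 1.43 ± 0.359 TPM in PKM2 NC libraries.

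The gene lies at chr12:21764955-21775581 on the minus strand (GRCh38, GENCODE 29), and 268 of its exonic bases overlap AC010185.1 on the opposite strand. AC010185.1 had at most 2 counts in any library. KCNJ8 lies next to ABCC9, which encodes SUR2, the sulfonylurea receptor that completes the channel. ABCC9 had 4.72, 3.96 and 4.77 CPM in NC and 4.64, 3.71 and 4.53 CPM in NONO knockdown libraries, and 4.98, 4.96 and 4.69 CPM in NC and 5.39, 5.03 and 4.12 CPM in PKM2 knockdown libraries. The ABCC9 groups overlapped in both experiments, with log2 fold changes of -0.06 ± 0.162 (SE) and -0.01 ± 0.147. The other pore and receptor of ATP-sensitive channels were at or near 0, KCNJ11 with 18 and 17 counts over the 6 libraries of each experiment and ABCC8 with none.

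**Figure D1:**
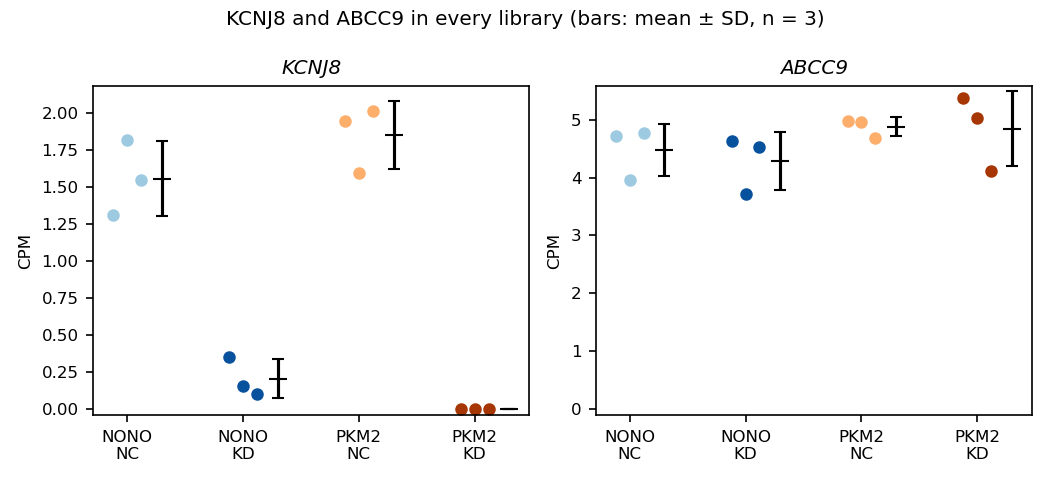
CPM of KCNJ8 and of ABCC9 in each library of the 4 groups (NC, negative control; KD, knockdown), with the mean ± SD of 3 libraries in black beside each group. KCNJ8 falls to between 0.102 and 0.349 CPM after NONO knockdown and to 0 after PKM2 knockdown, whereas the ABCC9 groups overlap.

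Among the other inward rectifiers, KCNJ14 (Kir2.4) fell after NONO knockdown and rose after PKM2 knockdown. It went from 3.56 ± 0.118 to 2.29 ± 0.203 CPM with NONO knockdown (log2 fold change -0.64, SE 0.182, edgeR adjusted P = 0.0191) and from 5.28 ± 0.236 to 7.51 ± 1.47 CPM with PKM2 knockdown (log2 fold change 0.51, SE 0.154, edgeR adjusted P = 0.0121). The call was lost in 3 of the 6 fits that left out 1 library in the NONO experiment and without knockdown replicate 1 in the PKM2 experiment (edgeR adjusted P = 0.0519). With DESeq2 the NONO call was lost as well (adjusted P = 0.0826). Exons of KCNJ14 share 471 bases with GRWD1 and AC008403.1 on the same strand, and GRWD1 had log2 fold changes of 0.04 and -1.75, so reads assigned between these genes leave the KCNJ14 values uncertain. KCNJ15 (Kir4.2) had log2 fold changes of -0.62 (SE 0.262) and -0.13 (SE 0.197) and passed the test in neither experiment. In TPM the NONO difference of KCNJ15 had the opposite sign, and on log2(TPM + 1) it was called lower after PKM2 knockdown (log2 fold change -0.62, limma adjusted P = 0.0338).

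After NONO knockdown, 9 of the 21 tested members other than KCNJ8 were called at an edgeR adjusted P below 0.05, 8 of them lower and 1 higher. Over all genes tested 33.4% were called, 17.2% lower and 16.2% higher. KCNAB2, KCNC4, KCNIP3, KCNJ14, KCNK12, KCNMB3, KCNMB4 and KCNQ3 fell. The median log2 fold change of the 21 members was -0.25, against -0.01 over all genes. A fold above 2 with an adjusted P below 0.05 was reached by KCNK12, KCNMB3 and KCNMB4, which is 3 of 21 against 2.58% of all genes. Each was lower, against 1.93% of all genes lower by this rule. The members were weakly expressed, and neither these shares nor those of the PKM2 experiment below were matched for level. KCNK12 passed the low-count filter only through its NC libraries. Among the 19 members that passed through neither group alone, 2 had such a fold, KCNMB3 and KCNMB4. With the unadjusted P below 0.05 that the study's methods use, the count was again 3 of 21, against 2.95% of all genes.

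After PKM2 knockdown, 13 of the 21 were called, 11 lower and 2 higher. The background was 68.4% of all genes, 34.7% lower and 33.6% higher, so the share of members called was not above that of all genes. KCNC4, KCNIP2, KCNIP3, KCNK1, KCNK12, KCNK2, KCNK6, KCNMB4, KCNN4, KCNQ3 and KCNS3 fell, and KCNAB2 and KCNJ14 rose. The median log2 fold change of the 21 was -0.76, against -0.01 over all genes. That median includes the members, named below, that passed the low-count filter only through their NC libraries, which favours a fall. A fold above 2 with an adjusted P below 0.05 was reached by 7 members, each lower, against 20.6% of all genes and 13.6% that were lower by this rule. Of these 7, 5 passed the low-count filter only through their NC libraries, and among the 14 members that did not, KCNIP3 and KCNK1 had such a fold, a share near that background. With the unadjusted P it was 8 of 21, KCNN2 being added, against 20.8% of all genes.

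Some of these members passed the filter only through their NC libraries, which favours members that are high there. After PKM2 knockdown these were KCNC4, KCNE1, KCNIP2, KCNK12, KCNK2, KCNMB4 and KCNN2 beside KCNJ8, and after NONO knockdown it was KCNK12 beside KCNJ8. Among the 14 members that passed otherwise after PKM2 knockdown, 6 fell and 2 rose, against 34.7% lower and 33.6% higher over all genes tested. Among the 19 that passed through neither group alone after NONO knockdown, 7 fell and 1 rose, against 17.2% and 16.2%. The shares over all genes also include genes that passed through a single group, so they are no matched background.

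Among the 2-pore-domain leak channels, KCNK1 and KCNK6 fell after PKM2 knockdown, against 34.7% of all genes called lower. KCNK2 and KCNK12 were called lower as well, but passed the low-count filter only through their NC libraries. KCNK1 (TWIK1), the most abundant of them, had 15.7, 13.8 and 16.5 CPM in NC and 6.38, 5.54 and 5.31 CPM in PKM2 knockdown libraries, a log2 fold change of -1.42 (SE 0.114, edgeR adjusted P = 4.48e-07). After NONO knockdown it had 13.4, 15.4 and 14.5 CPM against 12.7, 16.4 and 15.1 CPM in NC libraries. The NONO groups of KCNK1 overlapped and those of PKM2 were far apart, and the difference between the knockdown effects was -1.40 on the log2 scale (SE 0.161, edgeR adjusted P = 1.21e-06). KCNK6 (TWIK2), a related channel found on endolysosomes, went from 7.63 ± 0.496 to 4.01 ± 0.946 CPM with PKM2 knockdown (log2 fold change -0.92, SE 0.169, edgeR adjusted P = 0.000431). With NONO knockdown its log2 fold change was -0.14 (SE 0.134).

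KCNK2 (TREK1), a channel opened by stretch and lipids, had 1.06, 1.03 and 1.16 CPM in NC and 0.166, 0.172 and 0.0793 CPM in PKM2 knockdown libraries. These are 90 counts in all against 10, and the log2 fold change was -2.93 (SE 0.411, edgeR adjusted P = 5.23e-05). In the NONO experiment KCNK2 had 0.803, 0.429 and 0.561 CPM in NC and 0.798, 0.61 and 0.61 CPM in knockdown libraries, which overlap. KCNK12 (THIK2) was the only one of the 4 that was also called lower after NONO knockdown. In both experiments it passed the low-count filter only through its NC libraries, which favours a fall. It had 1.66, 1.24 and 0.982 CPM in NC and 0.598, 0.559 and 0.356 CPM in NONO knockdown libraries, a log2 fold change of -1.34 (SE 0.361, edgeR adjusted P = 0.0143). With PKM2 knockdown it went from 2.01, 2.34 and 2.40 to 0.373, 0.430 and 0.198 CPM, a log2 fold change of -2.75 (SE 0.324, edgeR adjusted P = 1.25e-05). KCNK12 rested on 80 against 30 counts in the NONO experiment, where the call was lost without knockdown replicate 3 (edgeR adjusted P = 0.0678).

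Calcium-activated channels were represented by KCNN4, KCNN2 and the subunits KCNMB3 and KCNMB4. KCNN4 (KCa3.1), the intermediate-conductance channel, had 24.3, 23.6 and 24.6 CPM in NC and 10.7, 12.9 and 13.9 CPM in PKM2 knockdown libraries. With NONO knockdown it had 20.1, 20.3 and 20.2 CPM against 19.3, 25.0 and 24.2 CPM in NC libraries. Its level was thus lower after PKM2 knockdown (log2 fold change -0.95, SE 0.0956, edgeR adjusted P = 3.03e-06), and the NONO groups overlapped. NC replicate 1, which stood apart, was the low NC library in the NONO experiment, and without it the NONO log2 fold change was -0.27 and called (edgeR adjusted P = 0.00654), against -0.18 with it. The small-conductance channel KCNN2 had log2 fold changes of -0.01 (SE 0.298) and -1.06 (SE 0.450, edgeR adjusted P = 0.0541), so neither passed the test.

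KCNMB4, a beta subunit of the large-conductance BK channel best known from neurons, had the largest fall after PKM2 knockdown of any detected member other than KCNJ8. It passed the low-count filter in that experiment only through its NC libraries, which favours such a fall. Its NC libraries held 1.98, 2.66 and 2.65 CPM and its PKM2 knockdown libraries 0.0414, 0.0430 and 0.198 CPM, that is, 200 against 7 counts. The pooled ratio was 25.1 (95% interval 11.9 to 63.1, counting error only) and the log2 fold change was -4.59 (SE 0.452, edgeR adjusted P = 2.62e-06). In the NONO experiment KCNMB4 went from 1.96, 3.72 and 2.76 to 1.15, 0.915 and 1.22 CPM, and the groups did not overlap there either (log2 fold change -1.36, SE 0.288, edgeR adjusted P = 0.00394). KCNMA1, which encodes the BK pore itself, was not detected, with 19 counts in the NONO and 12 in the PKM2 experiment.

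KCNMB3, another beta subunit, had 3.71, 2.34 and 3.88 CPM in NC and 1.35, 1.93 and 1.58 CPM in NONO knockdown libraries, a log2 fold change of -1.03 (SE 0.256, edgeR adjusted P = 0.00957). In the PKM2 experiment it had 2.87, 2.14 and 2.65 CPM in NC and 2.90, 2.23 and 3.25 CPM in knockdown libraries, which overlap. The gene shares 3403 exonic bases with PIK3CA on the opposite strand and 864 with the pseudogene LRRFIP1P1 on its own, and its estimated counts were fractional in all libraries. PIK3CA had log2 fold changes of -0.02 and -0.50, and without knowledge of how strand was treated reads of the genes cannot be told apart.

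**Figure D2:**
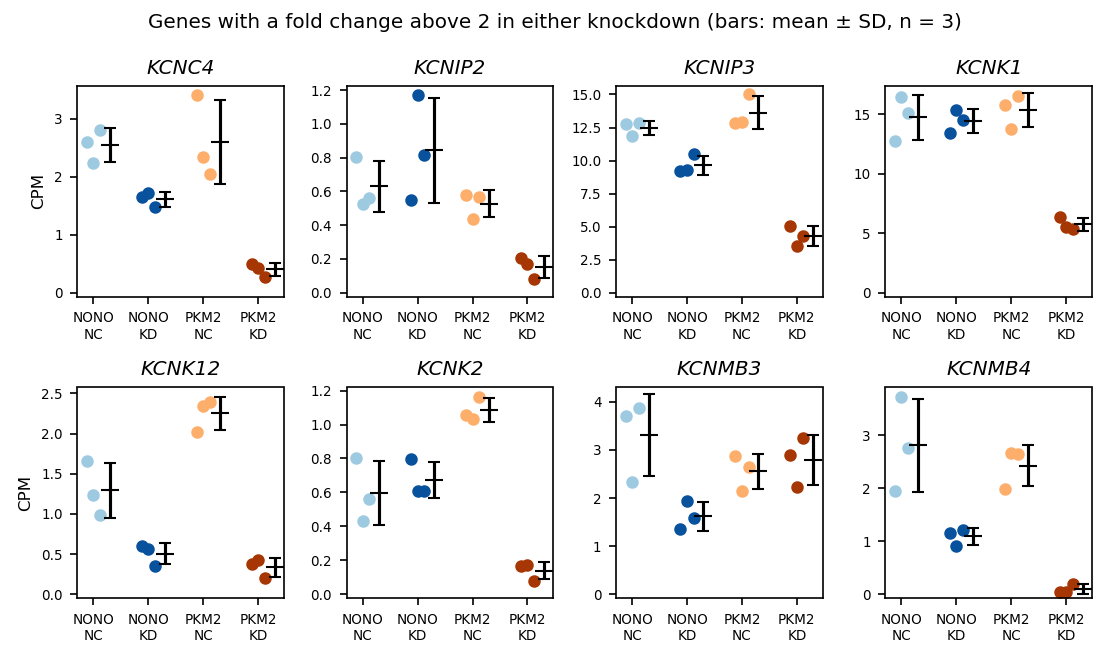
CPM in each library of the 8 potassium channel genes other than KCNJ8 with a fold change above 2 and an adjusted P below 0.05 in either knockdown, with the mean ± SD of 3 libraries in black; each panel has its own y axis from 0. The PKM2 knockdown libraries lie below their NC libraries in every panel but that of KCNMB3. KCNC4, KCNIP2, KCNK12, KCNK2 and KCNMB4 passed the low-count filter in the PKM2 experiment only through NC libraries, which favours this.

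Among the voltage-gated pores, KCNC4 was lower after both knockdowns. KCNC4 (Kv3.4), a fast-inactivating channel, had 2.61, 2.24 and 2.80 CPM in NC and 1.65, 1.73 and 1.47 CPM in NONO knockdown libraries, and 3.41, 2.34 and 2.05 CPM in NC and 0.497, 0.430 and 0.277 CPM in PKM2 knockdown libraries. It was lower in each knockdown, by log2 fold changes of -0.66 (SE 0.218, edgeR adjusted P = 0.0375) and -2.69 (SE 0.332, edgeR adjusted P = 1.82e-05). In the PKM2 experiment KCNC4 passed the low-count filter only through its NC libraries, which favours a fall. The NONO call of KCNC4 was kept only without NC replicate 2 among the 6 fits that left out a library, and DESeq2 gave an adjusted P of 0.143. KCNS3 (Kv9.3), a silent modifier that works only together with other pores, fell after PKM2 knockdown from 9.39 ± 0.95 to 6.86 ± 0.835 CPM (log2 fold change -0.45, SE 0.128, edgeR adjusted P = 0.0076) and had a log2 fold change of -0.02 (SE 0.147) after NONO knockdown. KCND1 (Kv4.1) had log2 fold changes of 0.06 (SE 0.135) and 0.27 (SE 0.247), with overlapping groups.

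The KCNQ genes encode Kv7 channels, which carry the M current in neurons. KCNQ5, among the most abundant members, had 29.7, 24.2 and 25.8 CPM in NC and 25.8, 25.4 and 30.3 CPM in NONO knockdown libraries. In the PKM2 experiment it had 28.4, 30.0 and 28.0 CPM in NC and 25.9, 27.2 and 23.98 CPM in knockdown libraries. It passed the test in neither experiment (edgeR adjusted P = 0.828 and 0.0541), although its PKM2 knockdown libraries lay below all of their NC libraries.

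KCNQ3 gave different answers on counts and on TPM. On counts it fell from 15.2 ± 0.698 to 8.83 ± 0.904 CPM after NONO knockdown (log2 fold change -0.78, SE 0.105, edgeR adjusted P = 0.000224) and from 18.2 ± 0.427 to 15.2 ± 0.641 CPM after PKM2 knockdown (log2 fold change -0.26, SE 0.0762, edgeR adjusted P = 0.00979). On TPM it also had a lower mean after NONO knockdown, 2.05 ± 0.251 against 3.30 ± 0.551, but a higher one after PKM2 knockdown, 11.7 ± 0.914 against 8.74 ± 1.68. Tested on log2(TPM + 1), the PKM2 change was 0.39 (limma adjusted P = 0.0409), so the direction after PKM2 knockdown depends on the unit. DESeq2 on counts gave an adjusted P of 0.0683 there. The CPM per unit of TPM, which grows with the transcript length that the TPM calculation divides by, was 4.66 ± 0.636 and 4.36 ± 0.722 in the NONO experiment and 2.13 ± 0.424 and 1.31 ± 0.137 in the PKM2 experiment, NC first. For KCNN4 the same quantity stayed between 1.03 and 1.16 in the 4 groups.

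Among the auxiliary subunits of voltage-gated channels, KCNIP3 fell after both knockdowns and KCNAB2 moved in opposite directions. KCNIP3, a calcium-binding partner of Kv4 channels also known as DREAM, a transcriptional repressor, had 12.7, 11.9 and 12.9 CPM in NC and 9.18, 9.25 and 10.5 CPM in NONO knockdown libraries. With PKM2 knockdown it went from 12.8, 12.9 and 15.1 to 5.01, 3.52 and 4.32 CPM. The groups were separate in both, with log2 fold changes of -0.37 (SE 0.102, edgeR adjusted P = 0.0151) and -1.67 (SE 0.137, edgeR adjusted P = 5.54e-07), and the effects differed by -1.30 (SE 0.172, edgeR adjusted P = 5.89e-06). The NONO call of KCNIP3 was kept in 3 of the 6 fits that left out a library and had a DESeq2 adjusted P of 0.053. KCNIP2, its relative, had 0.58, 0.437 and 0.564 CPM in NC and 0.207, 0.172 and 0.0793 CPM in PKM2 knockdown libraries (log2 fold change -1.77, SE 0.471, edgeR adjusted P = 0.0055, DESeq2 adjusted P = 0.0586). In that experiment KCNIP2 passed the low-count filter only through its NC libraries, which favours a fall. With NONO knockdown KCNIP2 had 0.549, 1.17 and 0.814 CPM against 0.803, 0.524 and 0.561 CPM, which overlap.

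KCNAB2, a beta subunit of Kv1 channels related to aldo-keto reductases, had 96.6, 88.3 and 84.0 CPM in NC and 77.1, 75.4 and 72.9 CPM in NONO knockdown libraries. In the PKM2 experiment it had 83.9, 76.3 and 83.3 CPM in NC and 86.8, 91.0 and 89.7 CPM in knockdown libraries. The groups did not overlap in either experiment, but the changes were small, with log2 fold changes of -0.25 (SE 0.0571, edgeR adjusted P = 0.00549) and 0.13 (SE 0.0546, edgeR adjusted P = 0.045). The rise after PKM2 knockdown was kept in 2 of the 6 fits that left out a library and lost with DESeq2 (adjusted P = 0.0503) and without the low-count filter. KCNAB1, a related subunit, had log2 fold changes of -0.25 (SE 0.335) and -0.12 (SE 0.415), and KCNE1 (minK), a partner of KCNQ1, had -0.64 (SE 0.558) and -0.76 (SE 0.438), none of which passed the test.

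Whether the knockdowns differed in their effect was tested directly for each member. The difference passed an edgeR adjusted P of 0.05 for 14 of the 21 members, 10 with a lower and 4 with a higher value for PKM2 knockdown, against 53.1% of all genes, 27.4% lower and 25.7% higher. Among the 10, KCNC4, KCNIP2, KCNK12, KCNK2 and KCNMB4 passed the low-count filter in the PKM2 experiment only through NC libraries. That favours a lower value for PKM2 knockdown, so the split is no evidence of a lean. Of the 21, 5 were called lower in both experiments, namely KCNC4, KCNIP3, KCNK12, KCNMB4 and KCNQ3, and the fall of the first 4 was larger with PKM2 knockdown, by between -1.30 and -3.24 on the log2 scale. Of these 4, only KCNIP3 did not pass the PKM2 filter through NC libraries alone, and such passing favours a larger fall there. For KCNQ3 the fall on counts was smaller with PKM2 knockdown, by 0.51 (SE 0.125, edgeR adjusted P = 0.00246). KCNAB2 and KCNJ14 were lower with NONO knockdown and higher with PKM2 knockdown. For 6 members, KCNAB1, KCND1, KCNE1, KCNJ15, KCNN2 and KCNQ5, neither knockdown gave a call. The shares of all genes called in both experiments or in neither are not given here, so no lean of the members is read from these counts.

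Tested on TPM in place of counts, fewer members were called. After NONO knockdown 1 of 13 members with a mean of at least 1 TPM, KCNAB2, passed limma on log2(TPM + 1), against 19.2% of all genes in that test. After PKM2 knockdown 6 of 12 passed, against 59.8% of all genes. KCNIP3, KCNK1, KCNK6 and KCNN4 were lower in both tests of the PKM2 experiment.

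Genes that work with potassium channels or also move potassium were taken from a list of 34, of which 20 were tested in each experiment. After NONO knockdown 4 were lower and 3 higher, and after PKM2 knockdown 9 were lower and 6 higher, against 33.4% and 68.4% of all genes called in either direction. LRRC8 genes encode volume-regulated anion channels, whose opening accompanies potassium loss when cells shrink back after swelling. After PKM2 knockdown LRRC8A, LRRC8B, LRRC8C and LRRC8E fell, by log2 fold changes of -0.57, -1.75, -1.10 and -0.21, and LRRC8D rose by 0.36. After NONO knockdown LRRC8A, the obligatory subunit, rose by 0.27 and LRRC8E fell, with a log2 fold change of -0.27. SLC12A4, a potassium-chloride cotransporter, also moved in opposite directions, with log2 fold changes of -0.22 (edgeR adjusted P = 0.0216) after NONO knockdown and 0.62 (edgeR adjusted P = 1.29e-06) after PKM2 knockdown. TMEM38A, a cation channel of the endoplasmic reticulum, fell in both (log2 fold changes -0.67 and -0.53), and its relative TMEM38B rose after PKM2 knockdown (log2 fold change 0.85).

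The members' GC content was looked at because the effects of PKM2 knockdown followed it over all genes. Over 4 groups of equal size, from the genes poorest in GC to the richest, the median log2 fold change after PKM2 knockdown was 0.11, 0.03, -0.04 and -0.21. The detected members numbered 3, 5, 7 and 7 in these groups, and their median GC content was 50.9% against 48.0% for all genes. With the trend of GC content and length subtracted, the median of the 22 members was -0.76 instead of -0.84, and KCNMB3 changed sign, from 0.13 to -0.09. Both medians include the members, KCNJ8 among them, that passed the low-count filter only through NC libraries. The rise of KCNAB2 went from 0.13 to 0.42 and the fall of KCNQ3 from -0.26 to -0.088.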

How the data were processed

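RNA-seq of 12 poly(A)-selected libraries of MDA-MB-231 cells was analysed in 2 experiments of 6 libraries, read as pairs of 150 bases. Sample labels gave the groups and replicate numbers. Column names recur in both tables, and a column belongs to the experiment whose table holds it. Estimated counts and TPM values per gene are what the authors deposited. The submitters' processing notes name fastp, HISAT2, StringTie, RSEM, DESeq2, edgeR, limma and hg19, without roles. The handling of strand and of reads matching several genes is not given in the sources used here. The authors' own fold changes and P values were not used.

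Estimated counts were rounded, and each experiment was tested with the quasi-likelihood test of edgeR 4.0.16 under R 4.3.3, using TMM factors, filterByExpr at its defaults and no replicate block. P values were adjusted by the Benjamini-Hochberg method over all genes tested, and a gene was called below 0.05. CPM values are TMM-normalized. The difference between knockdowns was tested as an interaction over the 12 libraries. Where TPM values were tested, limma 3.58.1 was used on log2(TPM + a pseudocount of 1 or 0.1), a scale that understates changes of low genes. DESeq2 1.42.0 was an alternative. The scripts were tested on simulated data. Ratios of pooled counts carry 95% intervals that cover counting error only. Replicates with the same number did not deviate together (correlations between -0.116 and 0.047), and no 2 libraries of a group agreed within sampling noise.

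Some genes, 1 detected member among them, are counted but not reported here. Members, roles, partner genes and markers were chosen with earlier results of these data known. Values in every library are given for KCNJ8, for members with a fold above 2 and an adjusted P below 0.05, for the 5 with the highest mean TPM and for the 5 with the smallest P of the difference. Gene positions, GC content and exon overlaps come from GENCODE 29 on GRCh38, which is not the authors' build, and served for description only.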

Additional observations from a re-analysis of the deposited data

Results flagged for a closer look

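For 14 members the effect of PKM2 knockdown differed from that of NONO knockdown, by edgeR's interaction test at an adjusted P below 0.05, against 53.1% of all genes. The values of 13 are given, as the log2 fold change after PKM2 knockdown minus that after NONO knockdown. The effect of PKM2 knockdown was the lower one for KCNMB4 (-3.24), KCNK2 (-3.12), KCNIP2 (-2.20), KCNC4 (-2.04), KCNK12 (-1.41), KCNK1 (-1.40), KCNIP3 (-1.30), KCNK6 (-0.80) and KCNN4 (-0.79). It was the higher one for KCNMB3 (1.15), KCNJ14 (1.13), KCNQ3 (0.51) and KCNAB2 (0.38). KCNMB4, KCNK2, KCNIP2, KCNC4 and KCNK12 passed the low-count filter in the PKM2 experiment only through NC libraries. That favours a lower effect of PKM2 knockdown for them. The call for KCNK12 was kept in 7 of the 12 fits that left out 1 library and lost with DESeq2 (adjusted P = 0.0535), and the other 13 were kept in each of those 12 fits.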

How the results depend on the processing

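The counts of called members were 9 after NONO knockdown, 13 after PKM2 knockdown and 14 for their difference. They became 6, 10 and 13 with DESeq2 and 9, 13 and 14 with relative log expression factors. Without the low-count filter or with a replicate block they were 8, 13 and 14. Of all genes in the same fits, DESeq2 called 28.8% after NONO and 47.4% after PKM2 knockdown. The shares were 33.5% and 68.4% with relative log expression factors, 19.4% and 37.4% without the filter and 29.3% and 67.8% with the block. Shares for the difference and for fits that left out 1 library are not given here. The replicate block ended the calls of KCNC4 after NONO knockdown (adjusted P = 0.0751) and of KCNAB2 after PKM2 knockdown (0.0638) and gave one for KCNN2 after PKM2 knockdown (0.0305). Leaving out 1 library gave 6 to 9, 12 to 15 and 13 to 15; without the third NC, first or second knockdown library of the NONO experiment the count was 6 in place of 9. Dropping NC replicate 1 of that experiment, which stood apart, gave 9, but with KCNC4 lost (edgeR adjusted P = 0.0613) and KCNN4 gained (0.00654), and without the third PKM2 knockdown library it was 15. With limma on TPM the NONO count was 1 at either pseudocount and without a filter. The PKM2 count was 6 with a pseudocount of 1, 7 with 0.1 and 9 without a filter. In the same order, 19.2%, 19.3% and 6.21% of all genes were called after NONO and 59.8%, 59.9% and 27.9% after PKM2 knockdown. Fewer members were tested there (13 and 12), except without a filter. A fold above 2 with an unadjusted P below 0.05 held for 3 members after NONO and 8 after PKM2 knockdown, against 2.95% and 20.8% of all genes. A mean of at least 1 TPM in each experiment left 12 members detected, and 0.5 TPM left 16.

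Signs turned as follows, and the cause was not tested. With limma on TPM, after NONO knockdown KCND1 became -0.21 (-0.28 with a pseudocount of 0.1), KCNJ15 0.13 (0.17), and without a filter KCNK2 -0.076 and KCNN2 0.035; KCNN2 was 0.000656 with DESeq2. After PKM2 knockdown KCNQ3 became 0.39 (0.43) and KCNQ5 0.014 (0.015). Subtracting the GC content and length trend, an alternative chosen after seeing the data, turned KCNMB3 after PKM2 knockdown to -0.088. Leaving out 1 library took the NONO log2 fold changes of KCNK1 from -0.12 to 0.061, KCNK2 from -0.0071 to 0.45, KCNN2 from -0.24 to 0.10, KCNQ5 from -0.054 to 0.13 and KCNS3 from -0.19 to 0.067, and that of KCNAB1 after PKM2 knockdown from -0.42 to 0.30; none of these was called.

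KCNJ8, KCNK2 and KCNMB4 had at most 10 counts over the 3 PKM2 knockdown libraries. The split of members by the group through which they passed the filter was also added after seeing the data.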
